A study of Mus musculus with 12 samples.

Results

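The aldehyde dehydrogenases described here are 10 genes of the mouse liver: Aldh1b1, Aldh1a1, Aldh1a7, Aldh1l1, Aldh2, Aldh3a2, Aldh4a1, Aldh6a1, Aldh7a1 and Aldh8a1. They were taken by name from the 52636 genes of the deposited table. The family was selected on the read counts of Aldh1b1, which are lower in the high-fat fraction, so its difference between fractions, and that of its relatives, is given as a description. Calls of members in that contrast are stated beside the share or number of all genes called, and nothing is drawn from them. All 10 passed the filter on low values (at least 10 reads per 20 M in at least 3 libraries), with 16563 genes of the table.

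The study compared wild-type (WT) mice with mice labelled as a knockout (KO) of Ptprk, which encodes a receptor-type protein tyrosine phosphatase. Hepatocytes from fatty livers were divided by Percoll gradient and differential centrifugation into fractions of low and of high fat content, and polyA RNA was sequenced. Each of 6 mice, 3 per genotype, gave 1 library of each fraction, so the 12 libraries form 4 groups of 3, by genotype (WT or KO) and by fraction. Low and high fat are the labels' terms for the lipid content of the cells. All groups share the steatotic liver. Mouse age, sex and strain, how the livers became fatty, and the cell type in which Ptprk was removed are not given in the sources used here.

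Aldehyde dehydrogenases oxidise aldehydes to carboxylic acids with NAD or NADP as cofactor. In the liver they clear acetaldehyde from ethanol and aldehydes from lipid peroxidation, make retinoic acid from retinaldehyde, and close the breakdown routes of several amino acids. Hepatocytes near the portal vein (periportal) and near the central vein (pericentral) carry different sets of metabolic enzymes, a layout known as zonation.

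Estimated depth was between 15.1 and 25.0 M reads per library, and a level of 3 reads corresponded to between 2.40 and 3.98 reads per 20 M. Ptprk was 2758, 2883 and 2724 reads per 20 M in low-fat and 2174, 2578 and 2469 in high-fat libraries of WT mice, and 1117, 1364 and 1333 against 1217, 1204 and 1179 in KO mice. On the log2 scale KO minus WT came to -1.13 for low-fat and -0.98 for high-fat libraries (limma adjusted p = 0.000978 and 0.00446), and no KO library reached the WT range. The high-fat call was lost without KO high-fat replicate 1 and when only the libraries compared were fitted. Both calls were lost without the mice of replicate number 1, a choice made after seeing the data. Hepatocyte markers summed to between 528920 and 611708 reads per 20 M in every library. Markers of stellate, sinusoidal endothelial and Kupffer cells were present in all groups and higher in the high-fat libraries; their values stand beside the fraction results.

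The sequences before the start sites are shown for the 4 members whose levels differed most between fractions or that are near-copies of each other. RefSeq (GRCm38.p6) gave such a window for 8 of the 10 members. Each line holds the 250 bases before the RefSeq start nearest that of the main transcript, 5′ to 3′ on the gene's strand. For Aldh1a1 and Aldh3a2 this start lies within the annotated gene, whose span begins further upstream, so their windows are inside it. Capitals mark exact matches, on either strand, to 1 of 4 motifs. They are the core bound by TCF/LEF factors, which reads CTTTGA, the promoter box named CCAAT for its letters, the E-box with the letters CACGTG, and the half-site of nuclear receptors, which reads AGGTCA. No motif matches overlapped another in the 4 windows. The motifs were picked with the fraction results known.
Aldh1b1 (chr4:45798772-45799021, plus strand): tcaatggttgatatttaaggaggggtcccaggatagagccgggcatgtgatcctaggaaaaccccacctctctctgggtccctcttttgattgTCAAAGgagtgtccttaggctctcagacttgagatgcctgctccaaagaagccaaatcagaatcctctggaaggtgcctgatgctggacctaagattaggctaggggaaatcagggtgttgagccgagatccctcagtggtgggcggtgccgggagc
Aldh3a2 (chr11:61267187-61267436, minus strand): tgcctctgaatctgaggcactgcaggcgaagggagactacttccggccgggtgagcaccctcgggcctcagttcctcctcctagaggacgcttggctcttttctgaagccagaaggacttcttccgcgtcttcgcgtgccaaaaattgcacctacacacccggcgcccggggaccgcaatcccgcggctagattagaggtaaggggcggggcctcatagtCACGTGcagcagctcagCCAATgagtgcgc
Aldh1a1 (chr19:20601718-20601967, plus strand): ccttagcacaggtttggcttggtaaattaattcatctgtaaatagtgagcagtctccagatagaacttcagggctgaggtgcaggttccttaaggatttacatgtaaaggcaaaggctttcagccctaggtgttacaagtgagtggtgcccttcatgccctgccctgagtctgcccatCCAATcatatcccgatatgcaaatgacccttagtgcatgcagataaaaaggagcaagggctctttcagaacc
Aldh1a7 (chr19:20727557-20727806, minus strand): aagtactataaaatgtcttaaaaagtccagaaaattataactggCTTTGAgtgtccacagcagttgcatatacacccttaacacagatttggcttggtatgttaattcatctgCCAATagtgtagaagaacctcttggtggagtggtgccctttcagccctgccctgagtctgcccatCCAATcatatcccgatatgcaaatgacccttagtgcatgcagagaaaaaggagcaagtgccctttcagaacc
The Aldh1b1 window held 1 match to CTTTGA, on the opposite strand from 157 to 152 bases before the start. Matches to CTTTGA were found in 3 of the 8 members with a window (Aldh1b1, Aldh1a7 and Aldh6a1) and in 13.8% of 32851 promoter windows of the same length. CCAAT was present in 6 of the 8 and in 33.8% of all windows, and Aldh1b1 had none. The Aldh3a2 window held 1 CACGTG (6.0% of all windows) and 1 CCAAT close to the start. AGGTCA was found in 1 member, Aldh1l1, against 14.0% of all windows. These are matches of letters and do not show that a factor binds.

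Aldh1a1 (20492715 to 20643465) and Aldh1a7 (20692953 to 20727562) lie on chromosome 19 in opposite orientations, 49488 bases apart. Their windows were identical at 173 of 235 aligned bases (73.6%), with an unbroken identical run of 65 bases that began 94 bases before each start. Their main transcripts shared 151 windows of 50 bases (7.53% of those of Aldh1a1) but 1 of 100 bases. Reads from the shared stretches could be assigned to either gene, so their values are uncertain to that extent. None of the other members shared a 50-base window with another.

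Aldh1b1 encodes a mitochondrial enzyme that oxidises acetaldehyde and other short aldehydes, and retinaldehyde. The gene (ENSMUSG00000035561) is annotated on chromosome 4 from 45799022 to 45804604 (GRCm38, GENCODE M21), with 2 exons of which 1 is coding. In WT low-fat libraries its level was 4500, 3597 and 4117 reads per 20 M for replicates 1 to 3, and in the high-fat libraries of the same mice 1666, 1889 and 2175. In KO mice the values were 4056, 3868 and 4713 in low-fat and 1334, 2230 and 2537 in high-fat libraries. The lowest low-fat library lay above the highest high-fat library in both genotypes. The high-fat mean was 46.9% of the low-fat mean in WT and 48.3% in KO. Within mice the log2 difference of high-fat minus low-fat, on the log2(value + 2) scale after rescaling between libraries, ran from -1.83 to -0.78 and was negative in 6 of 6 mice. The mean over 3 mice was -1.17 ± 0.34 (SD) for WT, and -1.17 ± 0.58 (SD) for KO. Both mice of replicate number 1 had the widest gap of their genotype, at -1.56 and -1.83. Without these mice the log2 difference was -0.96 in WT and -0.83 in KO. Averaged over genotypes, this difference had rank 2 from the lowest among 10517 genes averaging 100 reads per 20 M or more.

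Aldh2 (chromosome 5, 121566027 to 121593824) encodes the mitochondrial enzyme that clears most acetaldehyde and is the closest relative of Aldh1b1 in the family. It was 32215, 33608 and 36280 reads per 20 M in WT low-fat and 33855, 37195 and 39148 in WT high-fat libraries. The KO values were 33198, 31311 and 33666 in low-fat and 34275, 37106 and 36890 in high-fat libraries. These deposited values were higher in the high-fat library of all 6 mice. After rescaling between libraries this held in 4 of 6, with log2 differences from -0.18 to 0.26. The direction for single mice thus depended on the scaling. Per kilobase of the main transcript and per M reads, Aldh1b1 and Aldh2 together made up 529 ± 26.0 in WT low-fat and 517 ± 40.0 in WT high-fat libraries, and 515 ± 24.5 and 511 ± 33.6 in KO (SD, n = 3 each). Aldh1b1 held 16.8% ± 1.99 of that sum in WT low-fat and 8.02% ± 0.47 in WT high-fat libraries. In KO its part was 17.8% ± 1.12 and 8.57% ± 2.18. On these deposited values the sum of both mitochondrial enzymes stayed within the spread of the groups, and it was not computed after rescaling between libraries. The part taken by Aldh1b1, a ratio that the scaling leaves unchanged, did not overlap between fractions. That part rests on the Aldh1b1 values that chose the family.

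**Figure D1:**
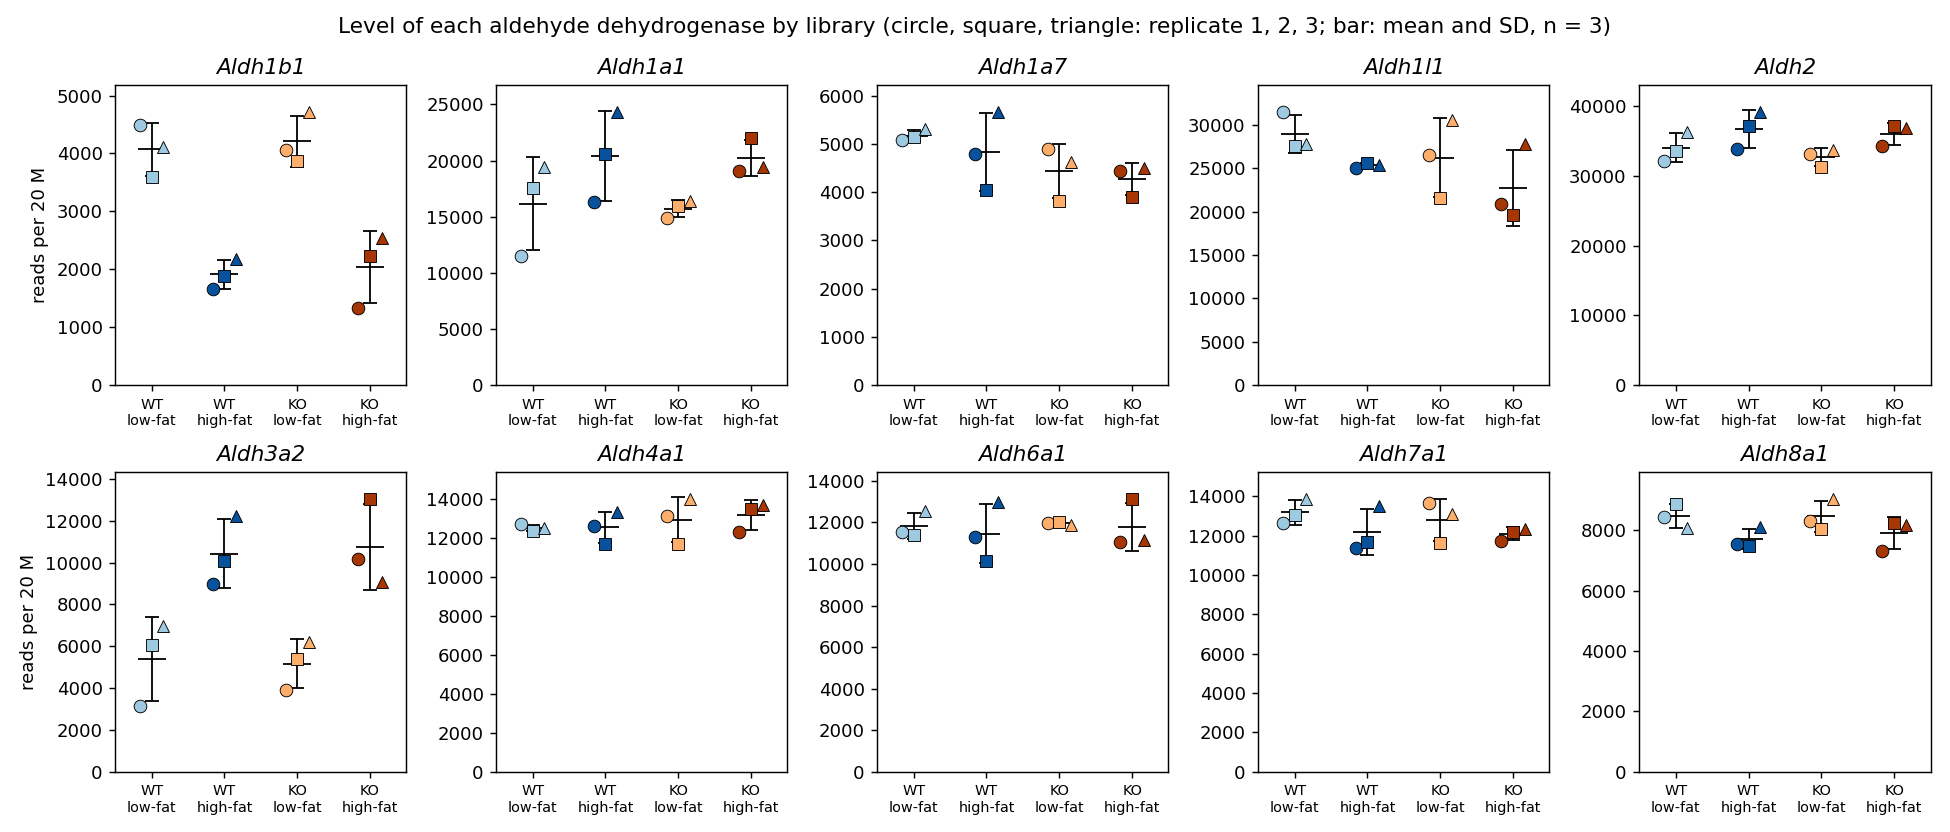
Reads per 20 M (axis from 0) of the 10 aldehyde dehydrogenases in each library, by genotype and fraction; marker shape gives the replicate and bars the mean and SD (n = 3). Aldh1b1 is at 1334 to 2537 in the 6 high-fat libraries and 3597 to 4713 in the 6 low-fat ones, and Aldh3a2 lies the other way.

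Aldh3a2 (chromosome 11, 61223417 to 61267464) encodes the fatty aldehyde dehydrogenase of the endoplasmic reticulum and peroxisomes, which turns long-chain aldehydes into fatty acids. It was the member with the largest difference in the other direction. Its level was 3124, 6048 and 6970 reads per 20 M in WT low-fat and 8996, 10056 and 12219 in WT high-fat libraries. In KO it was 3928, 5386 and 6204 in low-fat and 10151, 13038 and 9070 in high-fat libraries. No low-fat library reached the high-fat range in either genotype, and the low-fat libraries of replicate 1 were the lowest of their groups. The log2 difference was positive in 6 of 6 mice, from 0.55 to 1.39, averaging 0.94 ± 0.39 for WT and 0.995 ± 0.39 for KO mice (SD, n = 3). Without the mice of replicate number 1 it was 0.74 in WT and 0.93 in KO, and without WT low-fat replicate 1 alone the WT value was 0.60.

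Aldh1a1, the main cytosolic retinaldehyde dehydrogenase of the liver, was 11513, 17557 and 19423 reads per 20 M in WT low-fat and 16346, 20538 and 24304 in WT high-fat libraries. The KO values were 14852, 15909 and 16411 in low-fat and 19082, 22040 and 19454 in high-fat libraries. Groups overlapped in WT but not in KO, and the high-fat library was higher in 6 of 6 mice, by 0.14 to 0.48 on the log2 scale after rescaling. The WT difference of 0.27 was 0.052 without low-fat replicate 1, the lowest WT library. Aldh1a7, its neighbour, a rodent gene, did not share this direction. For WT it was 5073, 5132 and 5305 in low-fat and 4788, 4042 and 5656 in high-fat libraries, and for KO 4889, 3810 and 4629 against 4438, 3898 and 4497. After rescaling, its log2 difference lay between -0.37 and 0.044 and was negative in 5 of 6 mice, while the deposited values were lower in 4 of 6. With the values of both genes summed, the log2 difference was 0.17 in WT and 0.21 in KO.

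Aldh1l1 (chromosome 6, 90486427 to 90600203) encodes the cytosolic formyltetrahydrofolate dehydrogenase, a folate enzyme with a dehydrogenase domain of this family. Its level was 31489, 27566 and 27873 reads per 20 M in WT low-fat and 25063, 25601 and 25382 in WT high-fat libraries. In KO it was 26515, 21592 and 30622 in low-fat and 20848, 19644 and 27820 in high-fat libraries. The high-fat library was lower in 6 of 6 mice, by log2 differences from -0.57 to -0.12. The groups did not overlap in WT and overlapped in KO, where replicate 3 was high in both fractions.

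The other members, Aldh4a1 (chromosome 4, 139622866 to 139649690), Aldh6a1 (chromosome 12, 84430717 to 84451004), Aldh7a1 (chromosome 18, 56509687 to 56572951) and Aldh8a1 (chromosome 10, 21377291 to 21396585), serve amino acid breakdown and had small mean differences between fractions. Aldh4a1, which oxidises the semialdehyde formed from proline, was between 11692 and 13991 reads per 20 M in the 12 libraries, and its direction between fractions changed with the scaling between libraries. Aldh6a1, the methylmalonate semialdehyde dehydrogenase of valine breakdown, was between 10137 and 13130. Aldh7a1, which acts on lysine-derived and betaine aldehydes, was between 11368 and 13872. Aldh8a1, which acts in the kynurenine branch of tryptophan breakdown, was between 7292 and 9031. Its WT fractions did not overlap after rescaling between libraries but overlapped on the deposited values. Aldh6a1 overlaps Bbof1 and Aldh7a1 overlaps Phax on the opposite strand, and Aldh4a1 overlaps Gm21969 on its own, so their reads may include some of these genes. After rescaling between libraries, each of these 4 was lower in high-fat in 5 of 6 mice, the exception being KO replicate 2, with mean log2 differences over both genotypes of -0.061, -0.11, -0.17 and -0.19 in that order. On the deposited values WT replicate 3 was a further exception for Aldh4a1, Aldh6a1 and Aldh8a1, which were then lower in 4 of 6 mice. Without the mice of replicate number 1 the KO differences of Aldh4a1, Aldh6a1 and Aldh7a1 were 0.10, 0.033 and 0.0055, and that of Aldh1a7 was 0.010.

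**Figure D2:**
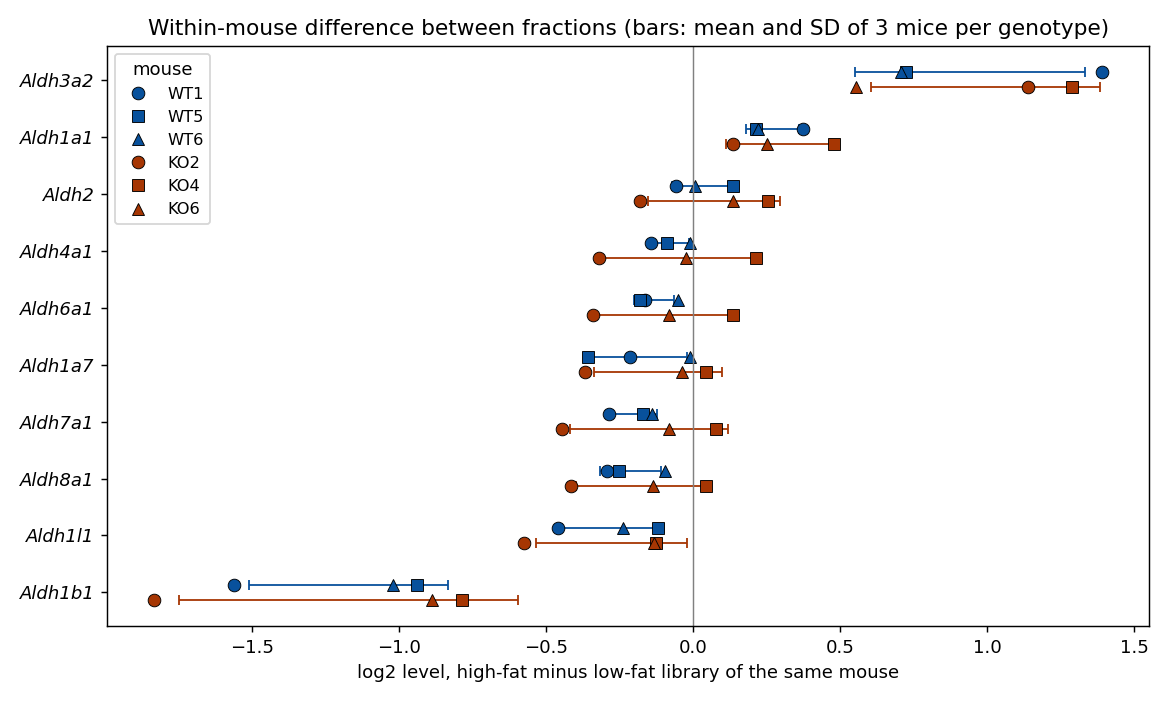
Difference in log2 level between the high-fat and the low-fat library of each of the 6 mice, by member; colours give the genotype, shapes the replicate, and bars the mean and SD of 3 mice. Aldh1b1 is negative in all 6 mice (-1.83 to -0.78) and Aldh3a2 positive in all 6 (0.55 to 1.39).

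After rescaling, members lower in 6 of 6 mice numbered 2 (Aldh1b1 and Aldh1l1), where 11.7% of the 16563 genes had that pattern, and members higher in 6 of 6 numbered 2 (Aldh1a1 and Aldh3a2), where 9.74% had it. On the same scale the fractions did not overlap for 4 members in WT (Aldh1b1, Aldh1l1, Aldh3a2 and Aldh8a1), where 17.9% of genes did not. In KO this held for 3 members (Aldh1b1, Aldh1a1 and Aldh3a2) and 13.5% of genes. limma called 0 of 10 members in WT, where 0 of 16563 genes (0%) were called. In KO it called 1 member (Aldh1b1), where 0.894% of genes were called, and this call was lost when any 1 KO library was left out. At an unadjusted p under 0.05 were 11.5% of genes in WT (1904) and 8.95% in KO. With a replicate block of 1 term per mouse it called Aldh1b1 and Aldh3a2 in each genotype, beside 1.02% of genes in WT and 2.13% in KO. These counts use the contrast that chose the family, so they support nothing about it.

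Per kilobase of the main transcript, the order of the members changed between fractions. In WT low-fat libraries Aldh1l1, Aldh2, Aldh1a1 and Aldh7a1 had the highest levels, at 475 ± 35.7, 440 ± 26.7, 394 ± 101 and 345 ± 16.3 reads per kilobase per M (SD, n = 3). Neighbours among these 4 overlapped. Aldh8a1, Aldh4a1 and Aldh6a1 followed at 187 ± 8.70, 185 ± 2.53 and 174 ± 8.99 and overlapped in turn. Aldh1a7 stood at 125 ± 2.92, and Aldh1b1 and Aldh3a2, at 88.6 ± 9.86 and 87.0 ± 32.5, overlapped at the bottom. In WT high-fat libraries Aldh3a2 was at 169 ± 26.6 and overlapped Aldh6a1, and Aldh1b1 at 41.6 ± 5.55 was lowest with no overlap to the next. In KO, Aldh1b1 and Aldh3a2 were at 91.7 ± 9.65 and 83.7 ± 18.6 in low-fat and at 44.2 ± 13.6 and 174 ± 33.2 in high-fat libraries. The order depends on the length used: over all annotated exons in WT low-fat libraries, Aldh2 (332 ± 20.1) and Aldh1l1 (321 ± 24.2) lay above Aldh1a1 (164 ± 41.9), and Aldh1b1 (88.6 ± 9.86) lay above Aldh3a2 (47.9 ± 17.9) without overlap. The 10 genes together took 0.699% ± 0.0342 of the reads in low-fat and 0.717% ± 0.0598 in high-fat libraries of WT mice (SD, n = 3), and 0.673% ± 0.0474 and 0.705% ± 0.037 of those of KO mice. These shares are of the deposited values and were not computed after rescaling between libraries, so no direction between fractions is drawn from them.

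The comparison of KO with WT was not used to choose the family and could be tested. limma called 0 of 10 members in low-fat and 0 in high-fat libraries, where it called 1 of 16563 genes (0.00604%), Ptprk, in each. No member had an unadjusted p under 0.05 in either fraction, where 272 genes (1.64%) and 327 genes (1.97%) did, and the smallest among the members were 0.183 and 0.371, both for Aldh1a7. For Aldh1b1 the log2 fold change was 0.062 in low-fat (95% interval -0.46 to 0.58) and 0.070 in high-fat libraries (-0.45 to 0.59), with limma adjusted p = 1 for both. A two-sided exact permutation test of its log2 levels gave p = 0.7 and 0.9, where 3 against 3 libraries cannot go below 0.1. For Aldh3a2 the values were 0.0099 (-0.59 to 0.61) and 0.063 (-0.54 to 0.67). The widest differences were those of Aldh1a7, at -0.21 (-0.55 to 0.12) and -0.14 (-0.47 to 0.19), and of Aldh1l1, at -0.14 (-0.54 to 0.26) and -0.15 (-0.55 to 0.25). The deposited values of Aldh1a7 did not overlap between genotypes in low-fat libraries, but they did after rescaling between libraries, and the exact permutation p was 0.3. After rescaling, the genotypes overlapped for all 10 members in both fractions, where 5.43% and 4.92% of genes did not overlap. The remaining members lay between -0.044 and 0.094. Directions turned with the scaling for Aldh1a1, Aldh3a2 and Aldh8a1 in low-fat and for Aldh7a1 in high-fat libraries. A p that misses the threshold does not show equal levels. Of 10 pericentral markers, 9 had lower values in KO in each fraction (median log2 -0.60 in low-fat and -0.51 in high-fat libraries). Of 8 endothelial markers, 8 were lower in each (-0.71 and -0.40). Kupffer and stellate markers were lower for 8 of 8 (-0.77) and 9 of 10 (-0.47) in low-fat libraries. In high-fat libraries these counts were 6 of 8 (-0.0805) and 6 of 10 (-0.0028). The 3 erythrocyte markers tested were higher in both (1.72 and 0.35), as were 8 of 10 periportal ones (0.0455 and 0.12). No marker of these lists was called, and their part in the members' values was not tested.

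The estimated difference between fractions was similar in both genotypes for each member, with wide intervals. On the log2 scale the interaction of genotype and fraction was 0.0084 for Aldh1b1 (SE 0.34, 95% interval -0.73 to 0.75). For Aldh3a2 it was 0.053 (SE 0.39, 95% interval -0.80 to 0.905), and all 10 members lay between -0.0055 and 0.074. Intervals this wide do not show that the differences are equal. limma called 0 members and 0 of 16563 genes (0%), with 24 genes (0.145%) at an unadjusted p under 0.05, and with the replicate block again 0, with 64 genes (0.386%).

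The genes most like Aldh1b1 over the 12 libraries were Gls2, Amdhd1, F7, Uroc1 and Gprc5c, with Pearson's r of log2 levels of 0.98, 0.98, 0.97, 0.97 and 0.97 among 10516 genes. Gls2 is the liver glutaminase, Amdhd1 and Uroc1 are enzymes of histidine breakdown, F7 is a coagulation factor and Gprc5c an orphan receptor. Gls2 was 15434, 14047 and 13785 reads per 20 M in WT low-fat and 8820, 8627 and 10012 in WT high-fat libraries, and 15036, 13866 and 15241 against 8463, 9638 and 11568 in KO. Like Aldh1b1 it had its lowest KO value in high-fat replicate 1 and was lower in 6 of 6 mice. The least alike were Ccdc157, Stard9 and Myo9a (r of -0.97, -0.94 and -0.94). Among the members, Aldh8a1 was most alike (r of 0.91, rank 53 of 10516) and Aldh3a2 least (-0.72). The 12 libraries share 6 mice and 4 groups, so these values are descriptions. When deviations from the group means were used, Aldh8a1 had r of 0.91, Aldh3a2 0.13 and Aldh1a1 0.34, and none of the 5 genes named stayed among the 5 highest, although their r lay between 0.84 and 0.94.

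**Figure D3:**
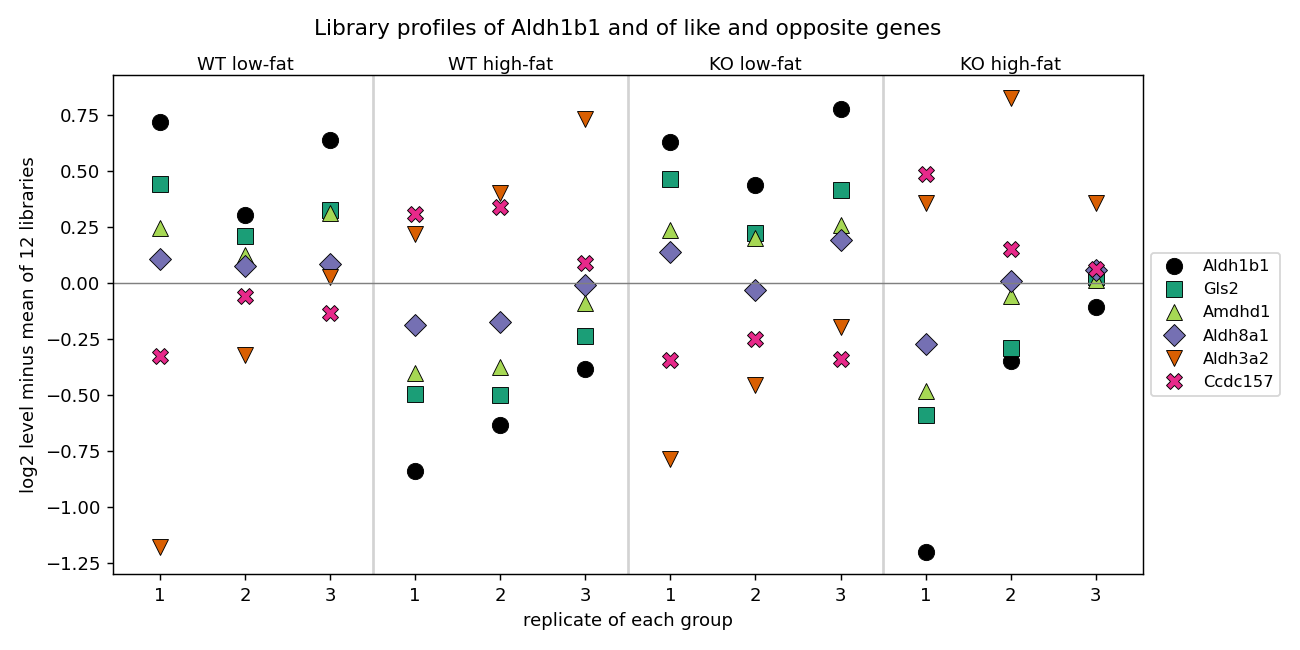
Log2 level minus the mean over the 12 libraries for Aldh1b1, the 2 genes most like it (Gls2, Amdhd1), 2 members (Aldh8a1, Aldh3a2) and the gene least like it (Ccdc157), by group and replicate. Aldh1b1, Gls2 and Amdhd1 are highest in low-fat libraries, and KO high-fat replicate 1 has the lowest Aldh1b1.

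Zonation markers differed in level between the fractions. All 10 pericentral markers, among them Cyp2e1, Cyp1a2 and Lgr5, had higher values in the high-fat libraries, with a median log2 difference of 0.70 in WT and 0.77 in KO, against -0.042 and -0.043 over all genes tested. All 10 periportal markers were lower, with medians of -0.58 and -0.56. limma called none of these 20 genes. With the replicate block it called 3 pericentral markers higher in KO (Cyp1a2, Gulo and Lgr5). It called 4 periportal markers lower in each genotype (Hal, Sds, Ctsc and Sox9), and Sox9 is also on the cholangiocyte list. Hal, which opens histidine breakdown, had log2 differences of -0.77 in WT and -0.69 in KO (limma adjusted p = 0.0479 and 0.0277 with the block). Gls2 is on this periportal list. Summed pericentral markers were 53416 to 98702 reads per 20 M in low-fat and 93273 to 129191 in high-fat libraries, and summed periportal markers 223584 to 271082 and 171151 to 200844. Their part in the differences of Aldh1b1 and Aldh3a2 was not tested.

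Markers of stellate, sinusoidal endothelial and Kupffer cells were also higher in the high-fat libraries. The isolation was meant to remove such non-parenchymal cells. Summed stellate cell markers were 163 to 765 reads per 20 M in low-fat and 2376 to 4105 in high-fat libraries, sinusoidal endothelial markers 976 to 2454 and 4186 to 13067, and Kupffer cell markers 427 to 1191 and 1852 to 10016. All 10, 8 and 8 markers of these lists were detected, none at 0 throughout, and all had higher values in both genotypes. limma called 8 of 10 stellate, 6 of 8 endothelial and 1 of 8 Kupffer markers higher in KO and 0 in WT. With the block the counts were 10, 6 and 1 in KO and 9, 2 and 0 in WT. The highest Kupffer sums, 10016 and 8731, were those of the high-fat libraries of replicate number 1, the mice with the widest Aldh1b1 gap. Few markers of cholangiocytes and lymphocytes passed the filter (2 of 6 and 2 of 5), with sums of 271 to 507 and 25 to 386. Of 4 erythrocyte markers 3 did, with sums of 15 to 1181. These went other ways. Both cholangiocyte markers were lower in high-fat libraries (median log2 -0.36 in WT and -0.51 in KO). The 3 erythrocyte markers were lower too (-0.69 and -2.03), and of the lymphocyte markers 1 was higher and 1 lower. Summed hepatocyte markers were 528920 to 598723 in high-fat and 545070 to 611708 in low-fat libraries. All 8 hepatocyte markers had lower values in high-fat in both genotypes, with medians of -0.18 in WT and -0.16 in KO, near the differences of Aldh7a1 and Aldh8a1. On the deposited scaling 7 of 8 were lower, with medians of -0.099 and -0.087. The part of these cells in the members' values was not tested, and in bulk RNA fewer cells of a kind and less RNA per cell cannot be told apart.

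**Figure D4:**
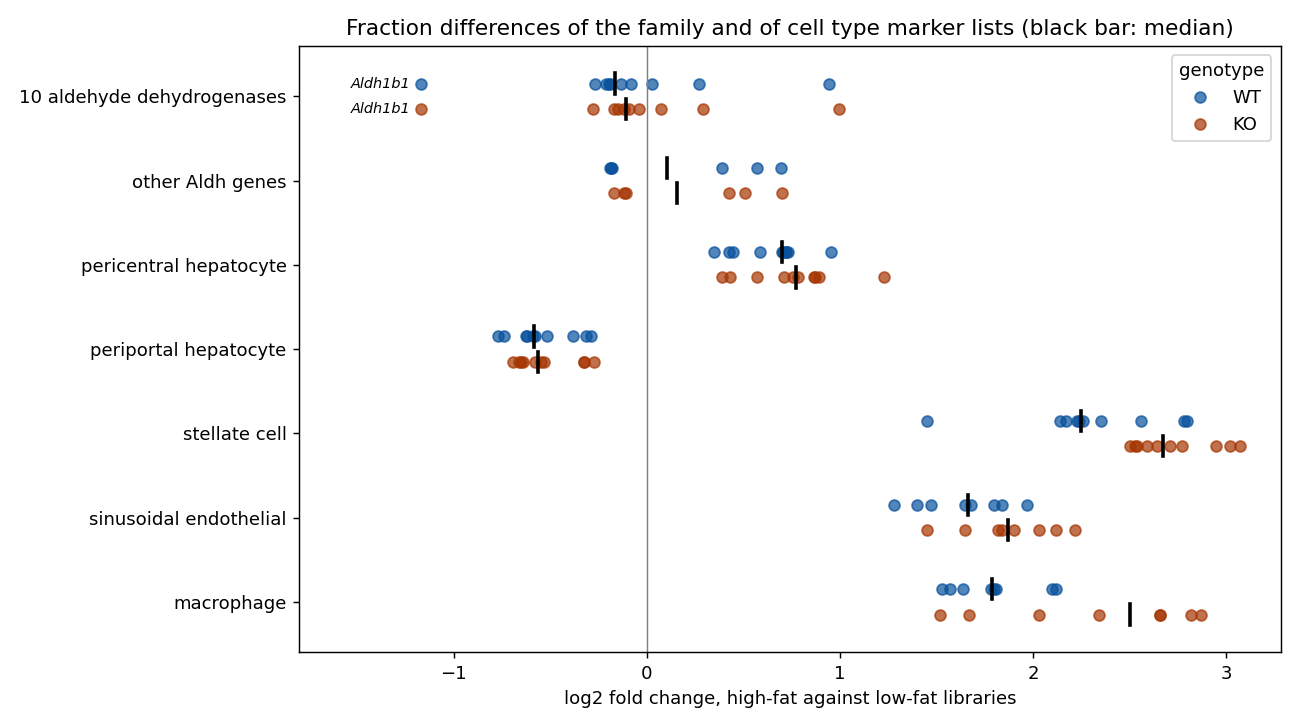
Difference in log2 level between the fractions (high-fat minus low-fat) for the genes of the family and of marker lists, by genotype; each point is a gene and black bars are medians. Aldh1b1 (-1.17 in each genotype) lies beyond the periportal markers, whose medians are -0.58 and -0.56.

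Of 11 further Aldh genes, 6 passed the filter and none was called in any comparison, with or without the block. Aldh9a1, Aldh5a1 and Aldh16a1 were expressed at 5551 to 7030, 2296 to 2973 and 2282 to 2718 reads per 20 M. After rescaling all 3 were lower in high-fat in 5 of 6 mice, with mean log2 differences of -0.15, -0.18 and -0.15, while the deposited values of Aldh9a1 and Aldh5a1 were lower in 4 of 6. Aldh18a1, which opens proline synthesis, and Aldh3b1 were scarce, at 10 to 83 and 14 to 58 reads per 20 M, with log2 differences of 0.39 and 0.57 in WT and 0.51 and 0.70 in KO. After rescaling Aldh18a1 was higher in high-fat in 5 of 6 mice and Aldh3b1 in 6 of 6. Aldh1l2 was also higher in 6 of 6, at 4 to 15 reads per 20 M, not far above the level of 3 reads. Aldh3a1 was at 0 in all 12 libraries, and Aldh1a2, Aldh1a3, Aldh3b2 and Aldh3b3 did not exceed 8.

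The pathways around the members held few called genes. Their counts of higher and lower values are after rescaling. On that scale all 8 hepatocyte markers were lower as well, with medians of -0.18 in WT and -0.16 in KO, so lower values were not particular to these lists. On the deposited scaling the medians of all genes were 0.037 in WT and 0.025 in KO instead of -0.042 and -0.043, and fewer genes of these lists were lower. Of 14 tested genes of alcohol and aldehyde oxidation, the setting of Aldh2 and Aldh1b1, 0 were called. Cyp2e1, the ethanol-oxidising cytochrome, had the widest difference, with log2 values of 0.72 in WT and 0.71 in KO and higher levels in 6 of 6 mice. Aox1, an aldehyde oxidase, followed with 0.41 and 0.35. Of 18 retinoid genes, around Aldh1a1, Lrat was called higher in KO, and Lrat and Cyp26b1 in both genotypes with the block. Lrat, which esterifies retinol, is also a stellate cell marker. It was 30, 28 and 50 against 256, 199 and 149 reads per 20 M in WT, and 7, 31 and 35 against 193, 222 and 130 in KO. Of 23 folate genes, around Aldh1l1, 21 had lower values in the high-fat fraction in WT and 19 in KO, with medians of -0.19 and -0.13 (18 and 14 lower on the deposited scaling). Gldc, the glycine cleavage decarboxylase, was called lower with the block in both genotypes (log2 -0.64 and -0.57, limma adjusted p = 0.0479 and 0.0354). Ftcd, which degrades formiminoglutamate from histidine, had -0.27 and -0.30.

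All 10 tested genes of tryptophan breakdown, around Aldh8a1, had lower values in both genotypes, with a median of -0.22 in each (9 of 10 on the deposited scaling). Acmsd, which makes the semialdehyde that Aldh8a1 oxidises, was called lower in KO with the block (log2 -0.53, limma adjusted p = 0.0305) and not in WT (-0.48, 0.0516); the difference between genotypes was not called. Qprt, which leads to NAD synthesis, had -0.34 in WT and -0.29 in KO. All 9 genes of lysine, choline and betaine metabolism, around Aldh7a1, had lower values, with medians of -0.19 and -0.11 (6 in WT and 7 in KO on the deposited scaling), and 0 were called; Bhmt2 and Chdh had the widest mean differences, at -0.21 and -0.19. Of 12 genes around Aldh4a1, Got1 was called lower in KO with the block, and Oat and Gls2 had the widest differences, at 0.78 and -0.70 on average. Branched-chain and propionate breakdown, around Aldh6a1, had 0 called of 22, with medians of -0.14 and -0.081, and Pcca and Dld had the widest mean differences, at -0.24 and -0.20. Of 15 genes of fatty aldehyde and sphingolipid breakdown, around Aldh3a2, 0 were called, 5 had higher and 10 lower values, and the medians were -0.037 and -0.061, which turned to 0.044 and 0.0081 on the deposited scaling, with 9 higher in WT and 10 in KO. Cyp4a10, a fatty acid hydroxylase, and Sgpl1, which splits sphingosine phosphate into a fatty aldehyde, had the widest mean differences, at 0.34 and -0.27. No gene of these lists was called in KO against WT or in the interaction, with or without the block.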

How the data were processed

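Libraries of polyA RNA from 12 hepatocyte fractions were sequenced. The values deposited by the authors are a score: gene reads scaled to 20 M per library and rounded up, as the column sums (20.01 M) and the pattern of low values show. Reads were placed on mm9, per the submitters' processing notes. The aligner, counter and strandedness are not given in the sources used here. Genes were matched by identifier to GENCODE M21 (GRCm38; 52489 of 52636), from which lengths and coordinates come, and promoter windows to RefSeq. Depth was estimated from how often each low value occurs, searched between 10 and 30 M, since depths 20 M apart give the same pattern, and the level of 3 reads covers counting error only.

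Values were rescaled by the trimmed mean of M values and analysed as log2(value + 2), which understates changes of low genes. limma 3.58.1 (R 4.3.3) fitted 4 group means over all 12 libraries, with genes of at least 10 in at least 3 libraries, with a mean-variance trend, and p-values were adjusted by Benjamini-Hochberg over 16563 genes and called under 0.05. On simulated data with log2 changes of 1 it recovered 79% (KO against WT, low-fat) and 78% (high-fat). Between fractions it recovered 80% (WT) and 81% (KO), and in the interaction 59%. In each simulated comparison 100 genes had this change and 100 others a log2 change of 2, and there were 9 to 16 false calls. The simulated noise was drawn separately for each gene and library, without variation shared by the genes of a library or by the libraries of a mouse. In the measured libraries 0 of 16563 genes were called between WT fractions, where Aldh1b1 at -1.17 had limma adjusted p = 0.0793. The simulated shares therefore do not give the share of such changes found in these libraries. The intervals of log2 fold changes are 95% intervals of the limma fit.

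Low-fat and high-fat libraries of a replicate number come from the same mouse, and each group holds 3 mice, per the labels. Their deviations from the group means correlated across genes, with an r that averaged 0.52 for WT and 0.16 for KO mice. Across genotypes a shared number joins separate mice, and r was 0.25 to 0.40 in low-fat and -0.17 to 0.49 in high-fat libraries. Alternatives were a replicate block (a term per mouse between fractions and in the interaction, a term per replicate number in KO against WT), a same-mouse correlation, other scalings, pseudocounts, no filter on low values, summing Aldh1a1 and Aldh1a7, fewer libraries and leaving out each library; leaving out the mice of replicate number 1 was chosen after seeing the data.

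The members and lists were chosen with earlier results of these data known. The genes named are the members, Ptprk, and the 5 genes most and 3 least like Aldh1b1 by Pearson's r. Other Aldh genes were to be named at a mean of at least 10, and scarcer ones are named as well. In each pathway list the called genes and the 2 with the widest mean fraction difference are named. Marker genes are named from their lists.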

Additional observations from a re-analysis of the deposited data

How the results depend on the processing

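Low-fat and high-fat libraries with the same replicate number come from 1 mouse. With this pairing as a replicate block, 169 of 16563 genes (1.02%) were called between fractions in WT and 353 (2.13%) in KO. Without it 0 (0%) and 148 (0.894%) were called. The members called were 2 in each genotype with the block, and 0 and 1 without it. All member calls between fractions use the contrast that chose the family, so they support nothing about it. With a same-mouse correlation, 383 and 528 of 16563 genes were called, among them 2 and 2 members, from which again nothing is drawn. With only the libraries compared, 0 genes were called between KO fractions and 0 in KO against WT in high-fat libraries. Without the mice of replicate number 1, chosen after seeing the data, 22 genes were called between KO fractions and 0 in KO against WT in each fraction. With a pseudocount of 10, 1 gene was called between WT fractions. The call of Aldh1b1 in KO was lost (0 members called) with median-of-ratios scaling, pseudocounts of 0.5 or 10, no filter, only the libraries compared, without replicate number 1 and without any 1 KO library. WT libraries were not left out in this contrast. Leaving out each library of the groups compared gave 0 to 1 genes between WT fractions, 0 to 75 between KO fractions and 0 to 1 in KO against WT in high-fat libraries. The 0 in the last of these came without KO high-fat replicate 1. Where 0 genes were called in KO against WT, Ptprk was not called either. The block changed no other call of a member. Ranking by Spearman's rho kept 2 of the 5 genes most like Aldh1b1 and ranking by deviations 0. The causes were not tested.

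No member was called in KO against WT or in the interaction under these settings, and several log2 values near 0 turned sign. In low-fat libraries, Aldh1a1 was -0.0033 with median-of-ratios scaling, -0.0059 with the deposited scaling, -0.19 without replicate number 1 and -0.050 summed with Aldh1a7; Aldh3a2 was -0.0015 with the deposited scaling and -0.17 without replicate number 1, and Aldh8a1 -0.00045 with the deposited scaling. In high-fat libraries, Aldh1a1 was -0.057 without replicate number 1 and -0.0074 summed, Aldh2 0.0077 without replicate number 1 and Aldh7a1 -0.0076 with the deposited scaling. The interaction was -0.0029 for Aldh1b1 with the deposited scaling and 0.033 for Aldh1l1 without replicate number 1.

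Leaving out each library, KO against WT in low-fat libraries ran from -0.080 to 0.14 for Aldh1b1, -0.21 to 0.19 for Aldh1a1, -0.26 to 0.013 for Aldh1l1, -0.11 to 0.035 for Aldh2, -0.33 to 0.27 for Aldh3a2, -0.0074 to 0.15 for Aldh4a1, -0.053 to 0.10 for Aldh6a1, -0.11 to 0.056 for Aldh7a1 and -0.036 to 0.069 for Aldh8a1. In high-fat libraries it ran from -0.15 to 0.41 for Aldh1b1, -0.14 to 0.18 for Aldh1a1, -0.27 to 0.00078 for Aldh1a7, -0.071 to 0.10 for Aldh2, -0.095 to 0.20 for Aldh3a2, -0.025 to 0.18 for Aldh6a1, -0.046 to 0.11 for Aldh7a1 and -0.0070 to 0.18 for Aldh8a1. The interaction ran from -0.21 to 0.35 for Aldh1b1, -0.16 to 0.24 for Aldh1a1, -0.052 to 0.22 for Aldh1a7, -0.20 to 0.12 for Aldh1l1, -0.036 to 0.15 for Aldh2, -0.21 to 0.40 for Aldh3a2, -0.045 to 0.15 for Aldh4a1, -0.053 to 0.15 for Aldh6a1, -0.030 to 0.15 for Aldh7a1 and -0.018 to 0.17 for Aldh8a1. Between fractions, Aldh1b1 ran from -1.33 to -1.08 in WT and -1.39 to -0.83 in KO, and Aldh3a2 from 0.60 to 1.20 and 0.84 to 1.14. Values that moved by over 1.5 times in WT were those of Aldh3a2, Aldh1a1 (0.052 to 0.45), Aldh1a7 (-0.34 to -0.067), Aldh2 (-0.047 to 0.11), Aldh4a1 (-0.16 to -0.026), Aldh6a1 (-0.24 to -0.042) and Aldh7a1 (-0.29 to -0.13). In KO they were those of Aldh1a7 (-0.25 to -0.013), Aldh1l1 (-0.47 to -0.16), Aldh2 (0.017 to 0.17), Aldh4a1 (-0.14 to 0.064), Aldh6a1 (-0.18 to 0.0074), Aldh7a1 (-0.24 to -0.068) and Aldh8a1 (-0.23 to -0.054). Signs turned for Aldh2 in WT (without low-fat replicate 1 or 2 or high-fat replicate 3), for Aldh4a1 in KO (without low-fat replicate 1 or 3 or high-fat replicate 1) and for Aldh6a1 in KO (without high-fat replicate 1).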
